A study of Mus musculus with 6 samples.

Results

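The 10 genes described here encode the stress sensors of the endoplasmic reticulum (ER) membrane and the membrane-bound or spliced transcription factors that work with them. They were taken by gene symbol, and all 10 were found among the 16472 genes of the single expression table analysed. They are the sensors Ern1 (IRE1), Eif2ak3 (PERK), Atf6 and Atf6b, the CREB3 family members Creb3, Creb3l1 and Creb3l2, the site-1 and site-2 proteases Mbtps1 and Mbtps2, and Xbp1, whose mRNA is the substrate of IRE1. HT22, an immortalised mouse hippocampal line grown as a model of neurons, was exposed for 16 h to AA147 or to DMSO as vehicle, with 3 libraries per group and 6 in all. The labels write the AA147 dose as 10 mM, a unit that is in doubt because micromolar doses are usual for this compound. They give no genotype or added stressor for either group, and do not say whether the 3 libraries of a group came from separate cultures, so the errors below may reflect technical spread. AA147 is a small molecule known for activating ATF6 and the oxidative stress regulator NRF2.

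The unfolded protein response starts in the ER membrane when misfolded proteins build up in the ER. IRE1 cuts a short intron out of Xbp1 mRNA in the cytosol, and the joined message encodes the active factor XBP1s. PERK phosphorylates the translation factor eIF2α, which lowers protein synthesis while favouring translation of ATF4. ATF6, ATF6B and the CREB3 proteins are anchored in the membrane, travel to the Golgi, and are released as free basic leucine zipper factors once the site-1 and then the site-2 protease has cut them. All of these switches act on proteins or on splicing, and a transcript level per gene measures none of them.

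The values are those of the authors' deposited table, which has 1 line per gene and no value for a single library. It gives a mean normalized count over the 6 libraries, the log2 fold change between the groups, its standard error (SE), a p and an adjusted p, and a gene is called below at an adjusted p under 0.05. The numerator of the fold change is not named in the table. Fold changes are read as AA147 over vehicle, and under the other reading every direction below is turned. The known targets of the compound did not settle this, since the NRF2 targets Gsta1 and Nqo1 were positive at 4.69 (SE 0.138) and 0.93 (SE 0.067), the former by far the larger, and the ATF6 target Hspa5 was negative at -0.80 (SE 0.061) by the authors' deposited table. Of 6 neuronal markers only Tubb3 was analysed, with a mean of 1199 normalized counts, while 5 of 5 fibroblast markers were, Col1a2 and Vim at means of 254004 and 152806, and the other 5 neuronal markers were not analysed here. The markers Slc1a2 of astrocytes, Mbp of oligodendrocytes and Itgam of microglia had means of 1.62, 2.00 and 1.71 by the authors' deposited table. How deeply each library was sequenced is unknown.

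The sequences that follow show the IRE1 substrate and what a count per gene cannot resolve in it. The intron, in capitals, is 26 bases long and lies within the coding sequence of Xbp1 at chr11:5474278-5474303 on the plus strand of GRCm39, where GENCODE release M39 annotates it in transcript Xbp1-205. It is shown with 20 bases on either side, 5′ to 3′, first in the unspliced transcript Xbp1-201 and then joined as in Xbp1-205.
Xbp1 unspliced: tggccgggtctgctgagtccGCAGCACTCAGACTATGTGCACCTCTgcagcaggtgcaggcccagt
Xbp1 spliced: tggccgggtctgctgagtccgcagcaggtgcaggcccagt
The letters at both ends of the intron repeat, so 7 placements of it give the same joined sequence. Capitals mark the first of them, as annotated, and the joined sequence does not show at which of them IRE1 cuts. Its length leaves a remainder of 2 over a codon of 3 bases, so its removal shifts the reading frame. Among the 24 Xbp1 transcripts of that annotation, 19 hold the intron with these flanks and 1 lacks it. Reads of both forms fall on the same gene, so the Xbp1 value below is the sum of the spliced and unspliced message.

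Xbp1, Creb3l2 and Creb3l1 were called, all with negative fold changes, and the other 7 genes were not. Read as AA147 over vehicle, Xbp1 mRNA was 2.32-fold lower (95% interval 2.12 to 2.53), Creb3l2 mRNA 1.83-fold lower (1.62 to 2.07) and Creb3l1 mRNA 1.31-fold lower (1.12 to 1.53) with AA147. The count of 3 negative and 0 positive calls in 10 genes stands beside 11.1% negative and 9.05% positive calls among all 13597 genes with an adjusted p, counted from the authors' deposited table. At an unadjusted p under 0.05 the authors' DESeq2 columns hold 5 negative genes and 1 positive gene among the 10, beside 15.8% negative and 14.8% positive among all genes with an adjusted p. The median log2 fold change of the 10 was -0.06, against 0.01 over all genes with an adjusted p. A lower count in bulk RNA does not tell fewer cells with a transcript from less of it per cell.

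**Figure D1:**
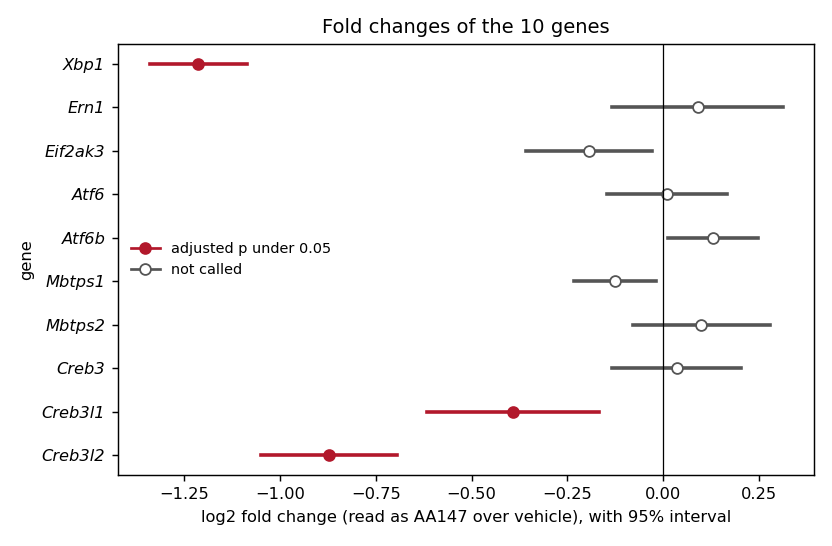
Log2 fold change (x axis, read as AA147 over vehicle) of each of the 10 genes (y axis), with the 95% interval from the authors' standard error. Filled red points have an adjusted p under 0.05, and Xbp1 at -1.21, Creb3l2 at -0.87 and Creb3l1 at -0.39 lie to the left of the 7 open points, which run from -0.19 to 0.13.

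Xbp1 encodes the transcription factor that drives ER expansion and secretory genes once IRE1 has spliced its mRNA. The authors' deposited table gives it a mean of 2939.95 normalized counts, and at face value its fold change implies 4108 in the denominator group and 1772 in the numerator group. Its log2 fold change was -1.21 (SE 0.065, adjusted p 1.03e-75, from the authors' deposited table). By the size of the test statistic it ranked 16 of 13597 genes. Among genes with a mean of at least 100, its fold change was the 31st lowest, so few transcripts at a usable level were more negative. Ern1, the sensor that splices this message, had a mean of 925 in the authors' deposited table and a log2 fold change of 0.09 (SE 0.113, adjusted p 0.657). Xbp1 minus Ern1 came to -1.30 on the log2 scale (95% interval -1.56 to -1.05, with the errors of the 2 genes taken as independent). The interval for Ern1 itself, -0.13 to 0.31, allows a level up to 1.24-fold higher.

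Eif2ak3, which encodes PERK, had a mean of 1358 and a log2 fold change of -0.19 (SE 0.084, adjusted p 0.0844) by the authors' deposited table. Its own interval ran from -0.36 to -0.03 before any adjustment over genes, and it was not called. Atf6, whose product AA147 is known to activate, had a mean of 1446 and the smallest fold change of the 10, 0.01 (SE 0.080, adjusted p 0.958, the authors' deposited table). The face-value levels were 1442 and 1451 normalized counts. The 95% interval of -0.15 to 0.17 spans Atf6 mRNA from 1.11-fold lower to 1.12-fold higher, and it covers only the spread between these libraries. Its paralog Atf6b, known as a weaker activator, had a mean of 7267 and a log2 fold change of 0.13 (SE 0.060, adjusted p 0.117, from the authors' deposited table). Atf6b was called at 0.19 (adjusted p 0.00969, a Benjamini-Hochberg adjustment) once a trend of the fold changes on transcript length, GC content and mean was subtracted. Atf6b minus Atf6 was 0.12 (95% interval -0.08 to 0.32), so no difference between the paralogs was resolved.

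Mbtps1 and Mbtps2 encode the proteases that release ATF6 and the CREB3 factors. Mbtps1 had the highest mean of the 10 genes, 10319.8 normalized counts, and a log2 fold change of -0.13 (SE 0.055, adjusted p 0.0866) by the authors' deposited table. Mbtps2 had a mean of 995 and a log2 fold change of 0.10 (SE 0.091, adjusted p 0.508) by the authors' deposited table. Neither was called. Mbtps2 minus Mbtps1 was 0.23, with an interval of 0.02 to 0.43 that is not adjusted for the 6 pairs of genes compared in this way. Those pairs were chosen after the values were seen.

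The CREB3 family split. Creb3l2 (BBF2H7), known for driving secretory transport genes in cartilage, had a mean of 1643 and a log2 fold change of -0.87 (SE 0.091, adjusted p 7.28e-20) by the authors' deposited table. The face-value levels of Creb3l2 were 2124 and 1162 normalized counts, and its test statistic ranked 138 of 13597. Creb3l1 (OASIS), known for driving type I collagen in bone, had the lowest mean of the 10, 684, and a log2 fold change of -0.39 (SE 0.115, adjusted p 0.00534) by the authors' deposited table. Creb3l1 ranked 1564 of 13597 and lost its call under a Bonferroni adjustment (adjusted p 1), while Creb3l2 and Xbp1 kept theirs. Creb3, also called Luman, had a mean of 1003 and a log2 fold change of 0.03 (SE 0.086, adjusted p 0.841) by the authors' deposited table. The differences within the family exceeded their errors. Creb3l2 minus Creb3 was -0.91 (95% interval -1.15 to -0.66), Creb3l1 minus Creb3 was -0.43 (-0.71 to -0.15) and Creb3l2 minus Creb3l1 was -0.48 (-0.76 to -0.19).

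The value of Creb3 is uncertain because of its position, with the largest exon overlap of the 10 genes. In GENCODE release M39, 49.8% of its canonical transcript of 1884 bases overlaps exons of Gba2 and 19.1% overlaps exons of Tln1, both on the opposite strand. The libraries were not stranded, so reads from the overlapping parts cannot be assigned by strand, and how the authors' counter treated them is not given in the sources used here. Gba2 had a mean of 291 and a log2 fold change of -0.08 (SE 0.144, adjusted p 0.778) by the authors' deposited table. Tln1 had a mean of 16906, against 1003 for Creb3, and a log2 fold change of -0.24 (SE 0.083, adjusted p 0.0204) by the authors' deposited table. The level per kb of Creb3 and its differences from Creb3l1 and Creb3l2 share this uncertainty. Smaller overlaps with non-coding genes on the opposite strand covered 10.6% of the Eif2ak3 transcript, 9.34% of that of Atf6b and 2.65% of that of Atf6. The other 6 genes, Xbp1, Creb3l1 and Creb3l2 among them, had none.

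**Figure D2:**
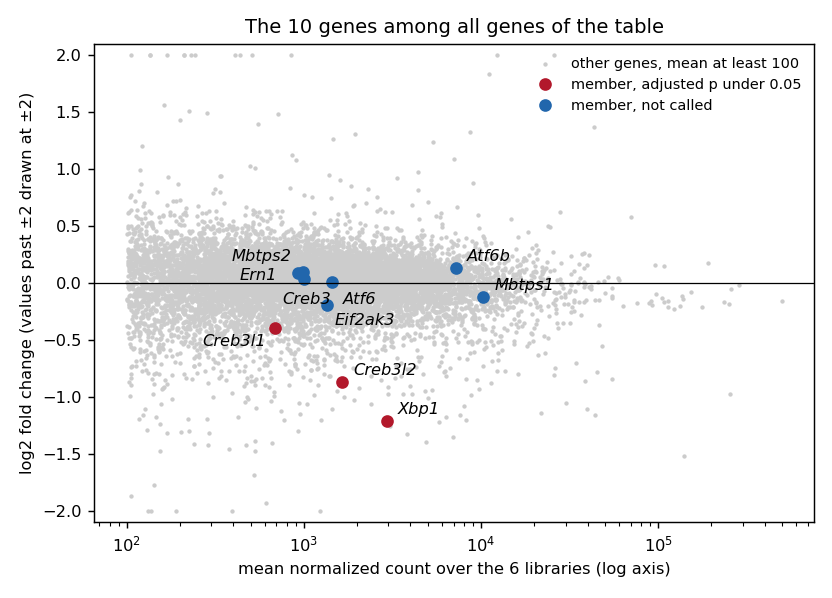
Log2 fold change (y axis, read as AA147 over vehicle, values past ±2 drawn at ±2) against the mean normalized count (x axis, log scale) with the 10 genes in colour and, in grey, other genes whose mean reached 100. Xbp1 and Creb3l2 lie below most genes of their abundance, whereas the 7 blue points, among them Atf6 at 0.01, lie inside the grey band.

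By mean count and SE all 10 genes were well measured, which leaves the uncertain assignment of reads to Creb3 as it was. Across the 10, means ran from 684 to 10319.8, above the table's median of 430, and their SEs from 0.055 to 0.115. Each SE was between 0.892 and 1.22 times the median SE of the 200 genes nearest in mean, with Ern1 at the upper end. At these errors the smallest absolute log2 fold change that would have been called was 0.14 for Mbtps1, 0.21 for Atf6, 0.29 for Ern1 and 0.30 for Creb3l1. These are cuts on the estimated fold change and no limits of detection for the true change.

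Per kb of canonical transcript, the order of levels was Atf6b (2781 normalized counts per kb), Mbtps1 (2150) and Xbp1 (1493), followed by Creb3 (533), Mbtps2 (386), Eif2ak3 (298), Creb3l1 (261), Creb3l2 (227), Atf6 (192) and Ern1 (132). The transcript of Atf6b is 2613 bases long and that of Atf6 7541. Whether neighbours in this order differ was not tested, since no spread over libraries is known, and the lengths are those of a newer annotation than the build mm9 of the submitters' processing notes. At face value Xbp1 went from 2086 per kb in the denominator group, close to Mbtps1, to 899.98 in the numerator group. Creb3l2 and Creb3l1 stood at 293 and 296 per kb in the denominator group and at 160.4 and 225 in the numerator group.

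**Figure D3:**
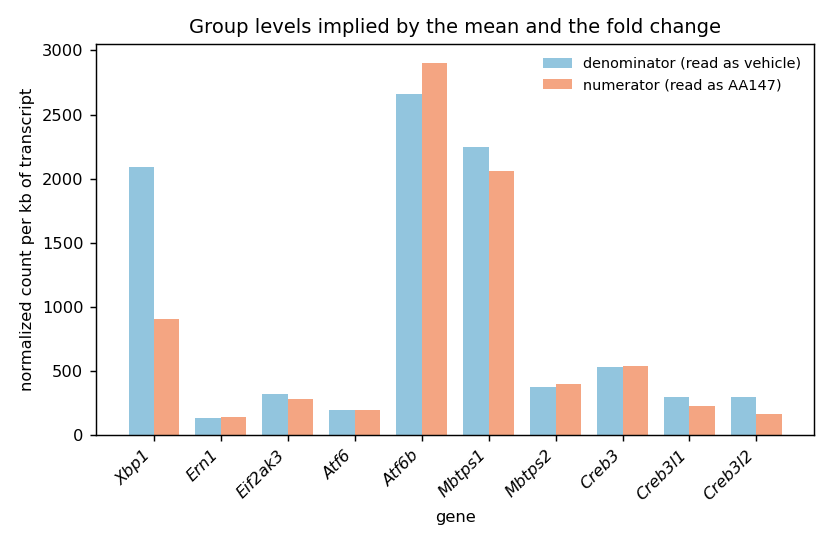
Normalized counts per kb of canonical transcript (y axis, from 0) for each of the 10 genes (x axis), as implied for the denominator group (blue) and the numerator group (orange) by the authors' mean and fold change, with no error bars because no value per library is known. The paired bars are far apart for Xbp1, at 2086 and 899.98, and near equal for Atf6, at 191 and 192.

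Promoters were examined because Xbp1 and Creb3l2 were negative together with the ATF6 targets Hspa5 and Herpud1. Of the listed ATF6 targets only Hspa5 and Herpud1 were searched, and Pdia4, called positive at 0.35, was not. Whether an element goes with the direction of change was not tested. ATF6 is known to bind, together with NF-Y, the ER stress element (ERSE), which is CCAAT and CCACG with 9 bases of any kind between them, and the related ERSE-II, which is ATTGG, 1 base of any kind and CCACG. In the RefSeq promoter table for GRCm38.p6, the 250 bases before the start of Hspa5 hold an ERSE and those of Herpud1 an ERSE-II, shown in windows of 30 bases with the fixed letters in capitals. The window of Hspa5, the chaperone BiP, is chr2:34772020-34772049, plus strand, and that of Herpud1, an ER-associated degradation factor, is chr8:94386368-94386397, plus strand.
Hspa5 ERSE: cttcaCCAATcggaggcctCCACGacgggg
Herpud1 ERSE-II: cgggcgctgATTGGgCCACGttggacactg
Searched on both strands, an ERSE occurred in 0.113% and an ERSE-II in 0.0304% of the 32851 promoters of that table.

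Promoters of 8 of the 10 genes matched by symbol, and Atf6 and Creb3l1 had no entry. None of the 8 windows of 250 bases held an ERSE, an ERSE-II, the XBP1 and ATF6 site TGACGTGG or the cyclic AMP response element TGACGTCA. The latter pair occurred in 0.563% and 1.55% of all promoters. The shorter core TGACG, which both of them contain, occurred in 2 of the 8, Creb3l2 and Mbtps1, and in 17.8% of all promoters. CCAAT, the NF-Y box and the start of an ERSE, occurred in 3 of the 8, Eif2ak3, Atf6b and Creb3l2, and in 33.8% of all promoters. CCACG occurred in 3 of the 8, Ern1, Mbtps1 and Creb3, and in 28.3% of all promoters. The ATF4 composite site TGATGNAAT occurred in none of the 8 and in 0.816% of all promoters. The windows of the called pair are printed below, Xbp1 at chr11:5520391-5520640 on the plus strand and Creb3l2 at chr6:37442149-37442398 on the minus strand of GRCm38.p6. Capitals mark CCAAT on either strand and TGACG, and the Xbp1 window holds neither.
Xbp1: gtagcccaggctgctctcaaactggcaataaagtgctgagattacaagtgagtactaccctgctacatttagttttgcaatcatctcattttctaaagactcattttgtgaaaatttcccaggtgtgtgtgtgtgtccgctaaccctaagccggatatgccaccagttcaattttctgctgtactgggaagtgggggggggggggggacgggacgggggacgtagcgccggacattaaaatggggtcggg
Creb3l2: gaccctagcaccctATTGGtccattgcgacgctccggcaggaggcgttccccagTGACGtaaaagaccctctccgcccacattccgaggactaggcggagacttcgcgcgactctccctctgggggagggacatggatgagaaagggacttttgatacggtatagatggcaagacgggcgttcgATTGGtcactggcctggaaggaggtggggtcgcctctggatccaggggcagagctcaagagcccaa
A match is a string of letters and no measure of binding, and its absence says only that these letters are not in the window. Bases outside the windows and other starts of these genes were not searched. Whether ATF6 acts on any of the 10 genes was not tested.

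The other genes of these pathways were taken from lists of 78 genes outside the 10, of which 76 were analysed. Among the 75 with an adjusted p, 33 were called negative and 5 positive, 50.7% in all against 20.2% of all genes in the authors' deposited table. Their median log2 fold change was -0.15, against 0.01 over all genes. Lists overlap, with 7 genes in more than 1 of them, and they are described by counts alone. They were chosen with earlier results of these data known, so a share above that of all genes is no test of them. The share of all genes is also not matched to the lists in abundance.

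Genes for proteins that hold, modify or degrade the sensors had a negative sign in 13 of 14 cases, against 48.3% of all genes with an adjusted p. Of the 14, 6 were called negative and 0 positive (all genes: 11.1% and 9.05%). At an unadjusted p under 0.05 in the authors' DESeq2 columns the counts were also 6 and 0 (all genes: 15.8% and 14.8%), and the median was -0.13. Hspa5, the chaperone that keeps IRE1, PERK and ATF6 inactive, was the lowest by far at -0.80 (adjusted p 9.89e-37, from the authors' deposited table). The other 5 calls were small. In the authors' deposited table they were Pdia5, known for promoting ATF6 export, at -0.24, the degradation factors Syvn1 at -0.21 and Os9 at -0.15, the PERK inhibitor Dnajc3 at -0.21, and Pdia6, which limits IRE1 signalling, at -0.18. At an adjusted p under 0.01 only Hspa5 of the 14 was called. Dnajb9, which brings BiP to IRE1, lay at -0.17 (SE 0.151, adjusted p 0.494), and Sel1l, the partner of Syvn1, at 0.10 (SE 0.066, adjusted p 0.312) by the authors' deposited table.

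The tRNA ligase complex joins the Xbp1 exons after IRE1 has cut them. Of its 5 genes, Ddx1 was called positive at 0.21 (SE 0.059, adjusted p 0.00412), and Rtcb, the ligase itself, was not called at -0.06 (SE 0.060, adjusted p 0.522) by the authors' deposited table. Among 5 paralogs outside the 10, the heme-regulated eIF2α kinase Eif2ak1 was called at 0.20 (adjusted p 0.0435), while Eif2ak2 at 0.08 and Eif2ak4 at 0.05, the other eIF2α kinases, were not in the authors' deposited table. The call of Eif2ak1 was lost when p-values were adjusted over all genes with a p. Calls made up 20% of the ligase complex and 20% of the paralogs, near the 20.2% of all genes. Ern2 and Creb3l4 had means of 70.3 and 16.8 in the authors' deposited table, and Creb3l3 was not analysed here.

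The site-1 and site-2 proteases also cut the sterol regulators SREBP1 and SREBP2. Of 7 other substrates and partners, Srebf2 at -0.46 (SE 0.062, adjusted p 5.23e-12) and Insig1, the sterol-sensing anchor of SREBP, at -0.73 (SE 0.069, adjusted p 1.16e-23) were called negative in the authors' deposited table. Gnptab, a phosphotransferase that the site-1 protease activates, was called positive at 0.27 (SE 0.069, adjusted p 0.000788, from the authors' deposited table). The 2 negative calls and 1 positive call in these 7 genes stand beside 11.1% and 9.05% of all genes. Scap, the escort of SREBP to the Golgi, lay at -0.0044 (SE 0.073, adjusted p 0.98), and Srebf1 at -0.18 (SE 0.076, adjusted p 0.067) by the authors' deposited table. Of 5 partners at the ER stress element, 2 were called, both negative, beside 11.1% negative calls among all genes. They were the NF-Y subunit Nfya at -0.28 (adjusted p 0.00957) and Gtf2i at -0.24 (adjusted p 0.000345) by the authors' deposited table. Nfyb at 0.20, Nfyc at -0.15 and Yy1 at 0.0042 were not called.

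The lists of ATF6 targets, of XBP1s targets and of genes of the PERK arm had negative medians. They are not separate readouts of the branches, since the other eIF2α kinases, for instance, act on the same factor as PERK. Of 13 ATF6 targets, 12 had an adjusted p, and 9 were called negative and 1 positive. Among all genes 11.1% were called negative and 9.05% positive, which also stands beside the next lists. The median of the ATF6 targets was -0.30, or -0.26 for those with a mean of at least 100. The lowest called were Herpud1 at -0.84, Hspa5 at -0.80 and Manf, a secreted ER stress factor, at -0.55, and the disulfide isomerase Pdia4 was the positive call at 0.35 in the authors' deposited table. Of 12 XBP1s targets, 6 were called negative and 0 positive, with a median of -0.18 and with 7 and 2 at an unadjusted p under 0.05 in the authors' DESeq2 columns (all genes: 15.8% and 14.8%). The signal peptidase subunit Spcs3 at -0.48, the COPII coat gene Sec24d at -0.36 and the translocon gene Sec63 at -0.35 were the lowest members by the authors' deposited table. Of 10 genes of the PERK arm, 4 were called negative and 0 positive, with a median of -0.21 and with 5 and 1 at an unadjusted p under 0.05 in the authors' DESeq2 columns (all genes: 15.8% and 14.8%). These were Trib3 at -0.62, Psat1 and Atf4 at -0.51 each, and Asns at -0.50 in the authors' deposited table.

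Transcripts known to be cut by IRE1, beside Xbp1, include the trafficking gene Bloc1s1. Of 5 such genes analysed, 4 were called negative and 1 positive (all genes: 11.1% and 9.05%), and their median was -0.53. Pdgfrb at -0.97, Col6a1 at -0.77 and Bloc1s1 at -0.53 (SE 0.122) were the lowest, and the lysosomal gene Hgsnat was the positive call at 0.40 (SE 0.068) by the authors' deposited table. Scara3 was not analysed here. Of 7 genes known as targets of CREB3 family factors, 5 were called negative and 0 positive, with 6 and 0 at an unadjusted p under 0.05 in the authors' DESeq2 columns (all genes: 15.8% and 14.8%), and the median was -0.29. Col1a1, a target of CREB3L1, was the lowest at -1.52 (SE 0.066), followed by Col1a2 at -0.97 and Sec24d at -0.36, and the KDEL receptor genes Kdelr3 and Kdelr2 lay at -0.29 and -0.26 by the authors' deposited table. Sec23a, a target of CREB3L2 in cartilage, was not called at -0.06 (SE 0.068, adjusted p 0.616, from the authors' deposited table). Pdgfrb and the collagen genes in these lists also mark fibroblasts. Of the 5 fibroblast markers 4 were negative calls, with Col3a1 at -1.11, and Vim was not called at -0.08 (SE 0.056), while the neuronal marker Tubb3 was positive at 0.43 (SE 0.092) by the authors' deposited table. The part of such markers in the values of Creb3l1 and Creb3l2 was not tested.

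**Figure D4:**
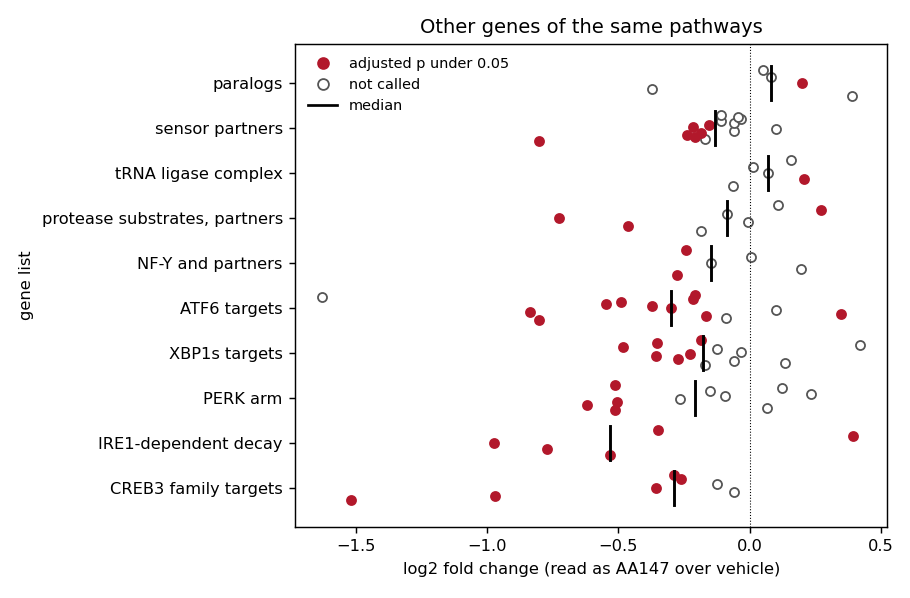
Log2 fold change (x axis, read as AA147 over vehicle) of the genes in 10 lists of related genes (y axis), with filled red points for an adjusted p under 0.05, open points for the others (Derl3, at -1.63, has no adjusted p) and a black bar at each list's median. The medians of the ATF6, XBP1s and PERK lists lie at -0.30, -0.18 and -0.21, and those of the paralogs and the tRNA ligase complex at 0.08 and 0.07.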

How the data were processed

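Non-stranded mRNA libraries were sequenced from 6 HT22 samples, 3 per group. The submitters' processing notes name DESeq2 and the build mm9. The aligner, counter, annotation and filters are not given in the sources used here. The authors deposited 1 comparison: per gene, a mean normalized count (a signal, not whole reads), a log2 fold change and its standard error, the Wald statistic as a score, and p-values before and after adjustment. Recomputing the Benjamini-Hochberg procedure for the 13597 genes with an adjusted p gave the deposited values to within 7.58e-07. The other genes stayed without a call.

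The 10 genes and the lists of related genes were chosen with earlier results of these data known. Genes named with values are the 10, genes of the lists of partners, and for each list of targets the 3 calls of largest absolute fold change and any call against the majority. Others were named after their values were seen: Asns, Sec23a, Kdelr2, Kdelr3, Gsta1, Nqo1, Gba2, Tln1 and the markers. Intervals of 95% are the fold change ± the normal quantile times the standard error, and face-value group levels follow from the mean and the fold change. Older symbols came from the RefSeq gene table for GRCm38.p6, promoters from its promoter table, and transcript lengths from GENCODE release M39 (GRCm39). No coordinates on mm9 are given. The code for calls was tested on simulated data. Tools were statsmodels 0.14.6 for the trend, SciPy 1.17.1 and pandas 2.3.3 under Python 3.11.15.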

Additional observations from a re-analysis of the deposited data

How the results depend on the processing

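The values per gene were taken as deposited, and no paired analysis was possible because the table has no value for single libraries. Leaving out each replicate in turn was not run for the same reason, and how far any call rests on 1 library is unknown. Of 70 alternative values for the 10 genes, 65 kept their direction and their side of the threshold, and the 3 negative calls held under each adjustment except those named here. Much of this was fixed in advance. Only centring and the trend alter a fold change, so no direction could turn under the other settings. The stricter thresholds could only remove calls. Atf6 changed sign around zero, to -0.0039 with fold changes centred on the median of genes with a mean of at least 100, which moved all values by 0.013, and to -0.044 after subtraction of a trend on transcript length, GC content and mean over 9620 genes. The trend also gave 1 positive call, Atf6b. Creb3l1 lost its call under a Bonferroni adjustment and when the log2 fold change also had to reach 0.5 in size. Of 80 counts over the lists, 76 stayed within 1.5 times. This rule is loose, and it passed a drop of negative calls from 9 to 6 for ATF6 targets at an adjusted p under 0.01. For XBP1s targets it passed a drop from 6 to 4 at the same threshold. Counts of 0 could not fall, and the stricter thresholds could not raise them. The positive call among the paralogs, Eif2ak1, went to 0 with the adjustment over all genes with a p, at an adjusted p under 0.01 and with centring. Negative calls among proteins that bind or modify the sensors went from 6 to 1 at an adjusted p under 0.01. All 20 list medians run kept their sign. Centring could not have turned any, since it moved them by 0.013 and the smallest median in size was 0.07. Derl3, Creb3l4 and Ern2 had low means, of 3.50, 16.8 and 70.3, and large SEs, of 1.23, 0.58 and 0.26.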
